A study of Pyrus pyrifolia with 6 samples.

Results

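Pectin is the gel-forming polysaccharide of the primary plant cell wall and of the layer that glues neighbouring cells together. Pectinesterases strip methyl groups from its galacturonic acid backbone and pectin acetylesterases strip acetyl groups. Polygalacturonases and pectate lyases then cut the backbone, and some beta-galactosidases trim its galactan side chains. In fruits these enzymes are best known for softening, but they also act wherever cells expand, separate or remodel their walls, as in a fruit skin that grows, cracks or turns corky. The genes described here are those whose listed description names a pectinesterase, polygalacturonase, pectate lyase, pectin acetylesterase or beta-galactosidase, without the proteins described as 21 kDa. They number 215 of the 42933 genes listed, and were compared between the skin of bagged and of untreated pear fruits.

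The fruits were from Pyrus pyrifolia cultivar Cuiguan, a sand pear with partly russeted skin, borne on orchard trees 6 years old. Bagged fruits received a single-layer white paper bag (Kobayashi F-PK2) at 20 days after full bloom and a double-layer yellow-white bag at 40 days. Untreated fruits had no bag, and skin of both groups was taken at 95 days. There were 3 libraries per group, called biological replicates in the labels, which do not say how many fruits or trees each holds, so p-values measure the spread between these libraries.

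Library totals ran from 15764049 to 19546285 counts. A principal component analysis of log2 CPM (counts scaled to library size) put bagged libraries on its first axis between 40.1 and 50.3 with untreated libraries at -52.0, -59.8 and, for replicate 3, -24.0. Of 25139 genes tested, 670 passed the quasi-likelihood test of edgeR at an adjusted p (Benjamini-Hochberg) below 0.05. Bagged skin was higher in 244 of them and lower in 426, which makes a background of 2.67% called, 0.971% higher and 1.69% lower. Of 21 listed marker genes of epidermis and cuticle 13 were tested, and both genes at 0 were described as MERISTEM L1-like. All 22 marker genes of stone cells and xylem secondary walls stayed below the test's filter on low counts, and 9 had no count, with a summed level of 0.245 to 0.499 FPKM (fragments per kilobase of gene length, scaled to library depth) in bagged and 0.191 to 0.661 FPKM in untreated skin. Of 12 phloem markers 7 were tested and none was called by edgeR, with sums of 36.8 to 40.9 FPKM in bagged and 32.2 to 62.8 FPKM in untreated skin, and both PHLOEM PROTEIN 2-LIKE A9 genes were at 0.

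Most of the listed pectin enzyme genes had few or no counts in this skin. Of the 215, 97 had no count in any library, 51 had counts below the filter, and 67 were tested. A gene without a count could still have up to 3 counts' worth of transcript per library, which is 0.153 to 0.190 CPM at these depths. The largest families had the largest share of genes without a count. Of 88 pectinesterase genes 52 had no count and 15 were tested, and of 71 polygalacturonase genes 37 had no count and 14 were tested. Of 26 pectate lyase genes 17 were tested, of 18 beta-galactosidase genes 11, and of 9 pectin acetylesterase genes 7. A pair of polygalacturonase inhibitors and a polygalacturonase non-catalytic subunit gene, which the same words brought in, were all tested. By biotype 206 of the 215 were protein-coding, 6 were pseudogenes, 2 transcribed pseudogenes and 1 was an assembled locus without a biotype.

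**Figure D1:**
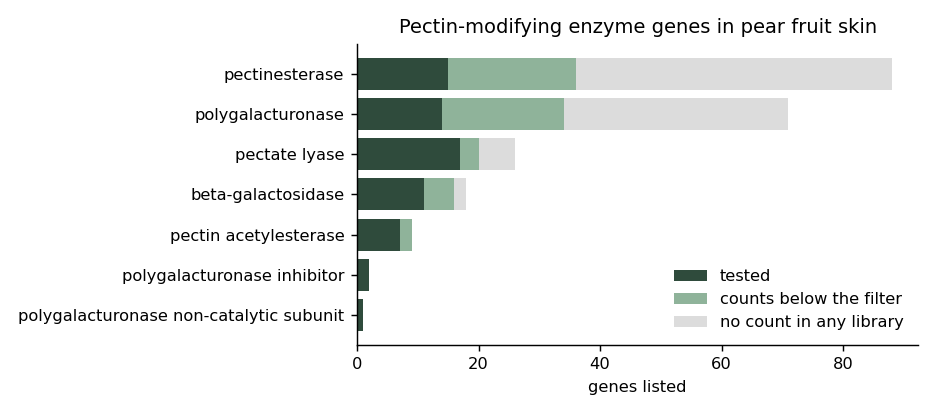
Number of genes listed per family (horizontal axis), split into tested genes, genes with counts below the filter and genes with no count in any of the 6 libraries. Pectinesterases and polygalacturonases, with 88 and 71 genes, hold 52 and 37 genes without a count.

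Whole groups of genes went untested. None of the 18 exopolygalacturonase-like genes, a type known from maize pollen, was tested. For 13 of them no library had a count, and the highest total over all 6 libraries was 10. The 6 genes described as pectinesterase 63 held a highest total of 1 count and the 8 genes described as pectinesterase 11 a highest total of 15. The QRT1 pectinesterase gene, whose Arabidopsis counterpart helps pollen grains separate, had no count. The 15 genes described as pollen-specific were not silent as a list. Of them 8 were tested, 1 higher and 1 lower, beside 0.971% higher and 1.69% lower of all tested genes. They summed to 1829 to 2015 FPKM in bagged and 1249 to 1507 FPKM in untreated skin. Of that sum 47.1% came from the pollen-specific protein C13-like gene LOC103962230, and 4 pollen-specific leucine-rich repeat extensin-like genes were at 0.

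Of the pectin enzyme genes with enough counts to be tested, few passed the edgeR test. Of the 67 tested, 4 fell, none rose and 63 did not pass the test. That is 5.97% called, against 2.67% of all tested genes, with 5.97% lower against 1.69%. At an unadjusted p below 0.05, 13 of the 67 were higher and 12 lower, both larger shares than the 8.21% and 7.71% of all genes. DESeq2 called 3 of the 67 higher and 7 lower, also a larger share than the 5.98% it called of all genes. The 4 that fell came from 4 families: the pectinesterase LOC103963535, the pectin acetylesterase LOC103934921, the pectate lyase LOC103932918 and the polygalacturonase LOC103958214. The median log2 fold change over the 67 was -0.02 (quartiles -0.28 and 0.26), beside -0.01 over all tested genes (quartiles -0.18 and 0.16), and 33 lay above 0 and 34 below. For 43 of the 63 uncalled genes the 95% interval of the fold change lay within 2-fold either way, as it did for 74.2% of all uncalled genes. Leaving out bagged replicate 1 left 1 gene that fell and leaving out bagged replicate 2 left 2. With any other library left out, 3 to 5 fell. The share called of all tested genes dropped as well, to 0.795% without bagged replicate 1 and 0.97% without bagged replicate 2. It was 1.15% to 2.69% with any other library left out.

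**Figure D2:**
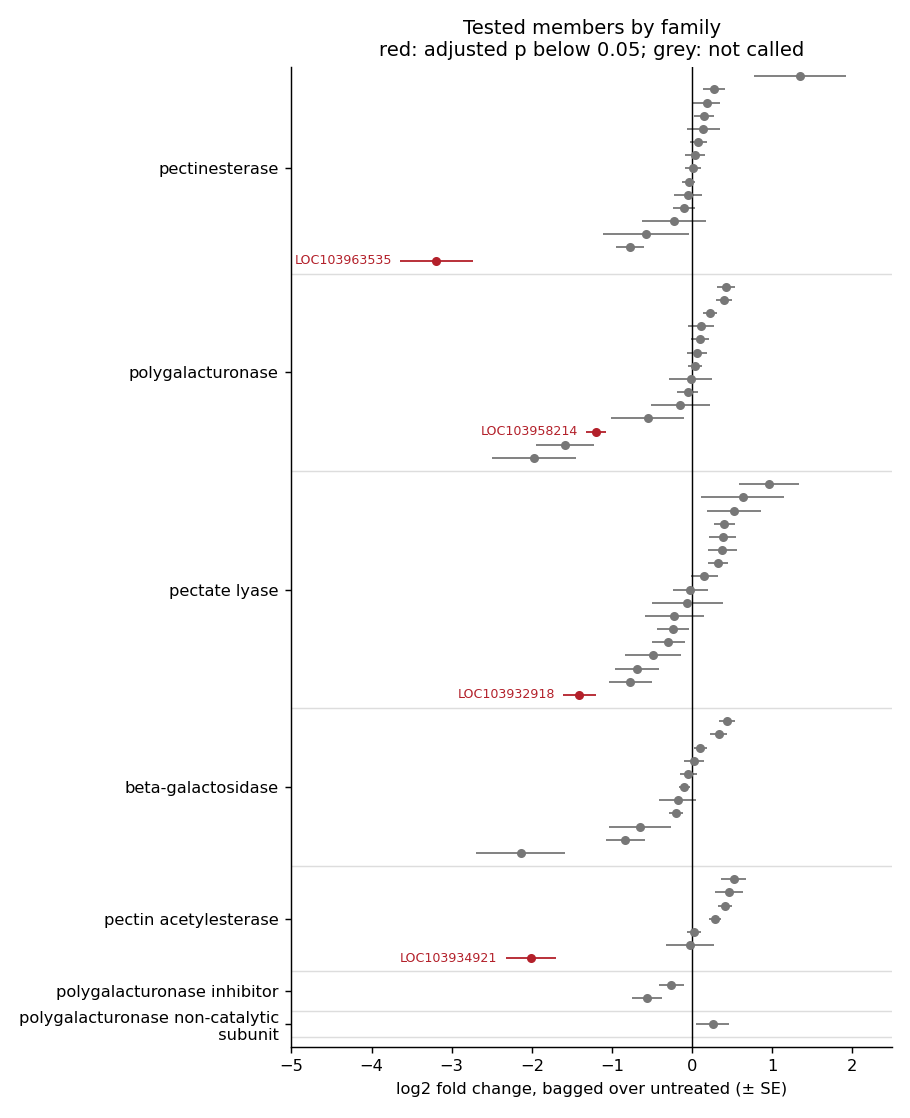
Log2 fold change of bagged over untreated skin (horizontal axis) for the 67 tested genes, 1 row each, grouped by family and sorted within it, with bars of ± 1 SE. The 4 called genes, in red with their names, lie between -3.19 and -1.20, and the family medians of the 5 larger families lie between -0.10 and 0.28.

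The 4 falls stood beside a fall of cork markers. Of 11 marker genes of cork, which seals russeted skin, 9 were tested, 7 fell and none rose, with none at 0. Among all tested genes 1.69% fell and 0.971% rose. The marker lists were set with earlier results of these data known, so these counts are a description and no test. The cork markers' sum was 10.9 to 27.4 FPKM in bagged and 106.9 to 179.9 FPKM in untreated skin. Of the 13 tested epidermis and cuticle markers 4 rose and none fell, with sums of 110.6 to 188.4 FPKM in bagged and 66.3 to 91.3 FPKM in untreated skin. Their part in the pectin genes' differences was not tested. In whole skin, fewer cells of a type and less RNA per cell cannot be told apart.

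Pectinesterases open the pectin backbone to calcium binding or to cutting, depending on where the methyl groups are removed. The pectinesterase with the largest change was LOC103963535, described as probable pectinesterase 29, on scaffold NW_008988287.1 from 375849 to 378545 on the minus strand. It had 0.699, 0.443 and 1.69 FPKM in bagged skin, against 10.6, 9.22 and 6.40 FPKM in untreated skin. Every bagged library lay below every untreated one, and bagged replicate 3 was the highest of its group. The log2 fold change was -3.19 ± 0.45 (SE), 9.13-fold lower, with an edgeR adjusted p of 0.0155. The call was lost without untreated replicate 1 (adjusted p = 0.053) or bagged replicate 1 (0.0708). It made up 1.83% of the summed FPKM of its family.

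The abundant pectinesterases did not follow it. LOC103958735, described as pectinesterase 1, had 54.0, 65.2 and 52.4 FPKM in bagged skin, against 51.3, 58.0 and 45.0 FPKM in untreated skin. LOC103943418, of the kind that carries its own inhibitor domain (pectinesterase/pectinesterase inhibitor 34), had 45.5, 47.2 and 54.3 FPKM in bagged skin, against 54.9, 41.1 and 46.5 FPKM in untreated skin. Both genes' groups overlapped, with log2 fold changes of 0.15 ± 0.12 (95% interval -0.14 to 0.44, edgeR adjusted p = 0.632) and 0.04 ± 0.12 (-0.25 to 0.33, adjusted p = 0.922). The value near 0 of LOC103943418 changed sign with library size as the only scaling (-0.01). Of 88 pectinesterase genes 41 have a description that names the inhibitor domain. Of these 10 were tested and none was called. Of the 47 others 5 were tested and 1 was called, beside 2.67% of all tested genes called. The difference between the kinds was not tested. The family's sum was 258, 266 and 272 FPKM in bagged skin, against 287, 258 and 248 FPKM in untreated skin, 265 ± 6.76 against 265 ± 20.3 (SD, n = 3 each).

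A neighbouring pair of pectinesterases shares its description. It lies outside the rule for named genes and was chosen after its values were seen. LOC103951683 and LOC103951684, both described as probable pectinesterase/pectinesterase inhibitor 51, stand 870 bases apart on the minus strand of scaffold NW_008988122.1. LOC103951683 had 9.11, 7.82 and 11.5 FPKM in bagged skin, against 17.1, 17.9 and 13.4 FPKM in untreated skin, without overlap. LOC103951684 had 10.97, 9.98 and 13.8 FPKM in bagged skin, against 11.4, 8.35 and 10.8 FPKM in untreated skin, with overlap. Their log2 fold changes were -0.77 ± 0.17 and 0.18 ± 0.17, and neither passed the edgeR test (adjusted p = 0.0638 and 0.67). The difference between the pair was not tested. The first passed without untreated replicate 3 or bagged replicate 3, with DESeq2 and with no filter. Also outside the rule, LOC103959116, described as pectinesterase/pectinesterase inhibitor PPE8B, had the highest fold change of all 67 genes. It had 3.32, 3.74 and 0.687 FPKM in bagged skin, against 0.827, 1.34 and 0.845 FPKM in untreated skin, so bagged replicate 3 lay below all untreated libraries. Its log2 fold change was 1.34 ± 0.58 (edgeR adjusted p = 0.313), and it was called without bagged replicate 3.

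Of the 7 tested pectin acetylesterases 1 fell, none rose and 6 did not pass the edgeR test, beside 2.67% of all genes called. At an unadjusted p below 0.05, 4 were higher and 1 lower, beside 8.21% and 7.71% of all genes. DESeq2 called 1 higher and 1 lower, beside 5.98% of all genes in either direction. LOC103934921, described as pectin acetylesterase 9-like, lies on scaffold NW_008988717.1 from 73052 to 79594 on the plus strand. It had 0.585, 0.972 and 1.297 FPKM in bagged skin, against 3.11, 4.40 and 4.06 FPKM in untreated skin, with no overlap. The log2 fold change was -2.01 ± 0.32, 4.03-fold lower, with an edgeR adjusted p of 0.0205. The call was lost without untreated replicate 2 (adjusted p = 0.0671), bagged replicate 1 (0.0579) or bagged replicate 2 (0.0737).

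The most abundant acetylesterase was higher in bagged skin without passing the test. LOC103941924, described as pectin acetylesterase 8-like, had 109, 103 and 121 FPKM in bagged skin, against 81.4, 79.9 and 88.3 FPKM in untreated skin, with no overlap. Its log2 fold change of 0.41 ± 0.09 had an edgeR adjusted p of 0.063 (0.0048 to 0.182 over the alternatives), and DESeq2 called it. A second gene with the same description, LOC103955547, had 67.3, 50.7 and 27.3 FPKM in bagged skin, against 42.1, 44.8 and 60.0 FPKM in untreated skin. Its groups overlapped widely, with a log2 fold change of -0.02 ± 0.30 (edgeR adjusted p = 0.984) that was positive without untreated replicate 3 (0.15) or bagged replicate 3 (0.26). LOC103955547 overlaps LOC103955549 on the minus strand, which holds 1039 counts in all. Of the 7 tested genes of the family, 4 were higher in every bagged library than in any untreated one and 1 was lower in every one, beside 10.7% and 11% of all tested genes. The family's sum was 277, 253 and 247 FPKM in bagged skin, against 213, 208 and 235 FPKM in untreated skin, 259 ± 16.0 against 218 ± 14.3 (SD, n = 3 each), and its median log2 fold change was 0.28. Without LOC103941924, a gene left out after its values were seen, the sums were 168, 150 and 126 FPKM in bagged skin, against 131, 128 and 146 FPKM in untreated skin, and overlapped.

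Polygalacturonases hydrolyse the backbone once its methyl groups are gone. LOC103958214, described as probable polygalacturonase, was the pectin gene with the smallest p. It lies on scaffold NW_008988200.1 from 541106 to 543974 on the minus strand and overlaps LOC103958216 on the plus strand, which holds 2654 counts in all. It had 6.89, 7.56 and 8.64 FPKM in bagged skin, against 19.2, 17.4 and 16.2 FPKM in untreated skin. The groups were far apart relative to their spread, 7.69 ± 0.88 against 17.6 ± 1.51 FPKM (SD, n = 3 each). The log2 fold change was -1.20 ± 0.12, 2.29-fold lower, with an edgeR adjusted p of 0.00668. Among the 4 called genes it was the only one whose call held in all 16 alternatives, the 6 single libraries left out among them (adjusted p at most 0.0346).

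A second polygalacturonase had a larger mean difference but did not pass the test, with 1 library far above the rest. LOC103941345, also described as probable polygalacturonase, had 14.6, 12.5 and 18.2 FPKM in bagged skin, against 75.0, 30.2 and 30.7 FPKM in untreated skin. The groups did not overlap, and untreated replicate 1 stood far above the others. The log2 fold change was -1.59 ± 0.36 (edgeR adjusted p = 0.0706). Without untreated replicate 1 it was -1.01 and passed (adjusted p = 0.0443), and its dispersion was 4.96 times the trend. The QRT3 gene LOC103953243, whose Arabidopsis counterpart is a polygalacturonase of pollen separation, was low throughout. It had 0.145, 0.055 and 0.275 FPKM in bagged skin, against 0.608, 0.804 and 0.501 FPKM in untreated skin, a log2 fold change of -1.98 ± 0.53 (edgeR adjusted p = 0.111). Its neighbour LOC103953242, also described as QRT3, was below the filter and is named after its counts were seen. It had 4, 0 and 2 counts in bagged libraries, against 8, 17 and 11 counts in untreated libraries.

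**Figure D3:**
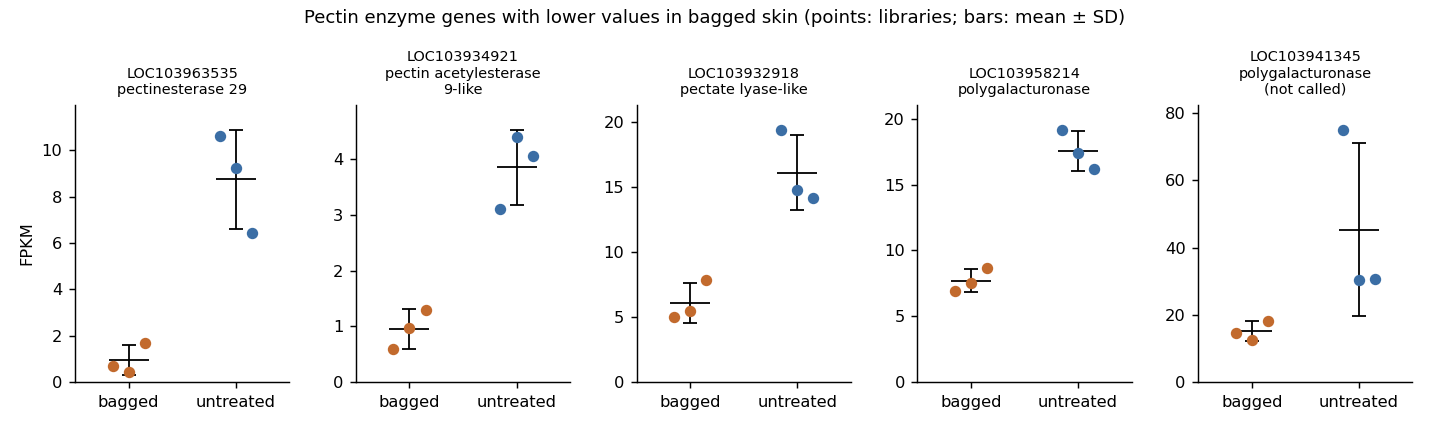
FPKM per library (vertical axis, from 0, a scale per panel) in bagged (orange) and untreated skin (blue) for the 4 called genes and for the uncalled polygalacturonase LOC103941345. Points are replicates 1 to 3 from left to right and bars mean ± SD, and in LOC103941345 untreated replicate 1 stands at 75.0 against 30.2 and 30.7 FPKM in the other untreated libraries.

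The most abundant polygalacturonase was LOC103929686, with 35.2, 35.0 and 36.4 FPKM in bagged skin, against 27.7, 32.7 and 30.4 FPKM in untreated skin. Its values did not overlap, but the log2 fold change was 0.23 ± 0.08 and did not pass (edgeR adjusted p = 0.247). Over the family, 3 of 14 tested genes were higher and 3 lower without overlap, beside 10.7% and 11% of all genes, and the median log2 fold change was 0.01. The family's sum was 138, 136 and 152 FPKM in bagged skin, against 197, 155 and 155 FPKM in untreated skin. With LOC103941345 and LOC103958214 left out, a choice made after their values were seen, the order of the groups turned. The sum of the remaining 69 genes was 117, 116 and 125 FPKM in bagged skin, against 103, 107 and 108 FPKM in untreated skin.

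Polygalacturonase inhibitors are wall proteins known to block the polygalacturonases of fungi. The 2 listed genes are neighbours on scaffold NW_008988089.1, 4811 bases apart. LOC103947767 had 4.78, 3.90 and 4.75 FPKM in bagged skin, against 6.87, 5.30 and 7.64 FPKM in untreated skin, with no overlap (log2 fold change -0.56 ± 0.19, edgeR adjusted p = 0.201). LOC103947768 had 10.1, 8.64 and 8.95 FPKM in bagged skin, against 10.4, 9.63 and 13.0 FPKM in untreated skin, with overlap (-0.26 ± 0.15, adjusted p = 0.468). Neither passed the test. LOC103947768 overlaps LOC103947769 on the plus strand, which holds 424 counts in all. The non-catalytic subunit gene LOC103953527, described as polygalacturonase 1 beta-like protein 3, belongs to a type known in tomato to bind a fruit polygalacturonase. It had 28.4, 27.9 and 42.0 FPKM in bagged skin, against 31.9, 21.1 and 29.1 FPKM in untreated skin. Its groups overlapped (0.26 ± 0.20, edgeR adjusted p = 0.604).

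Pectate lyases cut the demethylated backbone by elimination and were by far the most abundant pectin enzyme transcripts per length. They made up 59.3% of the summed FPKM of all 215 genes, and 2 genes described as probable pectate lyase 18 made up 89.0% of the family. The gene named PL in the table, on scaffold NW_008988404.1 from 205434 to 207337, had 772, 952 and 1052 FPKM in bagged skin, against 626, 766 and 699 FPKM in untreated skin. LOC103950090, on scaffold NW_008988108.1 from 1057800 to 1060037, had 462, 567 and 540 FPKM in bagged skin, against 357, 472 and 418 FPKM in untreated skin. The first pair of groups did not overlap and the second did. Neither gene passed the test, with log2 fold changes of 0.40 ± 0.13 (95% interval 0.10 to 0.71, edgeR adjusted p = 0.186) and 0.33 ± 0.13 (0.03 to 0.62, adjusted p = 0.261). For both, the upper end of the interval lies below a doubling.

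The pectate lyase that fell was a minor one. LOC103932918, described as pectate lyase-like, lies on scaffold NW_008988614.1 from 191149 to 193250 on the minus strand and held 0.769% of the family's summed FPKM. It had 4.96, 5.43 and 7.79 FPKM in bagged skin, against 19.4, 14.7 and 14.1 FPKM in untreated skin, with no overlap. The log2 fold change was -1.41 ± 0.21, 2.66-fold lower, with an edgeR adjusted p of 0.0164. The call was lost without bagged replicate 1 (adjusted p = 0.0669) or bagged replicate 2 (0.0646). Over the 17 tested pectate lyases the median log2 fold change was -0.02, and it was 0.23 without untreated replicate 1.

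The pectate lyase 18 pair held 52.8% of the summed FPKM of all 215 genes. The whole sum was 2390, 2640 and 2817 FPKM in bagged skin, against 2206, 2288 and 2219 FPKM in untreated skin, 1.17 times as high on average. Without the pair, a choice made after its values were seen, the sums overlapped, with 1156, 1121 and 1225 FPKM in bagged skin, against 1223, 1050 and 1101 FPKM in untreated skin. Within the family the other 24 pectate lyases summed to 144, 157 and 194 FPKM in bagged skin, against 203, 120 and 130 FPKM in untreated skin, again with overlap.

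**Figure D4:**
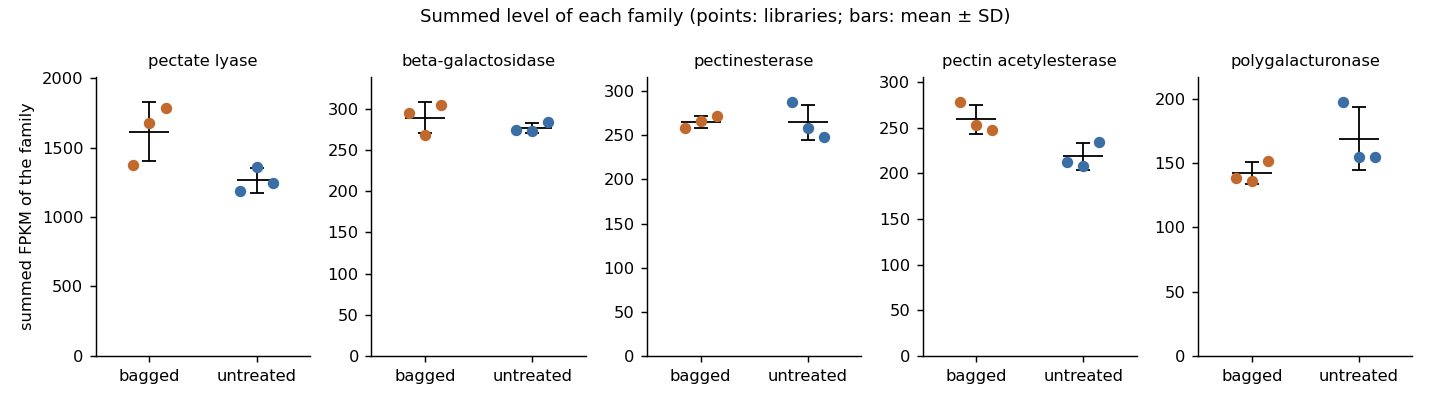
Summed FPKM of each of the 5 larger families per library (vertical axis, from 0, a scale per panel) in bagged (orange) and untreated skin (blue), with points for replicates 1 to 3 from left to right and bars of mean ± SD. Pectate lyases and pectin acetylesterases sit higher in every bagged library and polygalacturonases lower, while pectinesterases and beta-galactosidases overlap.

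Beta-galactosidases, exo-acting enzymes of which some trim the side chains, held no called gene. All 11 tested genes missed the edgeR threshold, which 2.67% of all tested genes passed. At an unadjusted p below 0.05, 2 were higher and 2 lower, beside 8.21% and 7.71% of all genes. DESeq2 called 1 higher and 1 lower, beside 5.98% of all genes in either direction. The most abundant, GAL6 (beta-galactosidase 8-like), had 87.0, 83.5 and 112 FPKM in bagged skin, against 99.2, 84.6 and 92.2 FPKM in untreated skin. These overlapped, and the log2 fold change of 0.03 ± 0.13 (95% interval -0.27 to 0.32, edgeR adjusted p = 0.949) changed sign under upper quartile factors (-0.0011) and library size alone (-0.03). GAL3 (beta-galactosidase 10) had 58.9, 48.7 and 55.9 FPKM in bagged skin, against 38.6, 45.9 and 45.3 FPKM in untreated skin, without overlap (0.33 ± 0.11, adjusted p = 0.18). The beta-galactosidase 16 gene LOC103965526 was lowly expressed, with 0.0697, 0.0661 and 0.121 FPKM in bagged skin, against 0.222, 0.626 and 0.307 FPKM in untreated skin, without overlap (-2.14 ± 0.56, edgeR adjusted p = 0.107).

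As a family, beta-galactosidases were close to level between the groups. The sum was 295, 269 and 304 FPKM in bagged skin, against 275, 273 and 284 FPKM in untreated skin, 289 ± 18.4 against 277 ± 6.04 (SD, n = 3 each). Among its members 2 were higher and 4 lower without overlap, beside 10.7% and 11% of all genes. The 2 that DESeq2 called lie outside the rule for named genes and were chosen after their values were seen. The beta-galactosidase 5 gene LOC103928364 had 31.7, 30.6 and 37.5 FPKM in bagged skin, against 24.3, 23.4 and 25.9 FPKM in untreated skin (0.44 ± 0.10, edgeR adjusted p = 0.0723). GAL4 had 8.70, 6.53 and 3.99 FPKM in bagged skin, against 10.8, 12.1 and 11.1 FPKM in untreated skin (-0.83 ± 0.25, edgeR adjusted p = 0.146), and overlaps LOC103951855 on the minus strand, which holds 614 counts.

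The authors' deposited table carries their own comparison, with a test that it does not name. By the authors' deposited table, 108 of the pectin enzyme genes have an adjusted p, and 9 of these lie below 0.05, 2 higher and 7 lower. Of all 32473 genes with an adjusted p, 4.72% lie below 0.05 (2.36% higher and 2.36% lower). The share of pectin enzyme genes listed as lower is above that of all genes, and the share listed as higher is not. The 9 are the 4 called here and LOC103941345, LOC103951683 and GAL4, listed as lower, and LOC103928364 and LOC103941924, listed as higher. For LOC103963535 the authors' deposited table gives a log2 fold change of -3.20, and for LOC103958214 one of -1.19.

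Many of the genes stand next to another of their kind. Within 50000 bases there were 48 neighbouring pairs, 44 of them within a family. In only 3 pairs were both genes tested, in 7 pairs 1 was tested, and in the rest neither. The tested pairs were the inhibitor pair, LOC103951684 with LOC103951683, and PME4 with LOC103950218 (pectinesterase/pectinesterase inhibitors PPE8B and 12, 7351 bases apart), whose log2 fold changes were 0.27 and -0.23, neither called by edgeR. None of the 4 called genes had such a neighbour.

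A separate list of 63 genes was drawn from descriptions linked to pectin building or to its other parts. Of these, 48 were tested, 2 rose and 2 fell (8.33% called, beside 2.67% of all genes), with a median log2 fold change of 0.03. A description does not show which wall polymer an enzyme acts on, and the untested xyloglucan-specific galacturonosyltransferases in the list name another polymer. UDP-glucuronate 4-epimerases make the galacturonic acid donor of pectin, and the most abundant gene of the list, LOC103962555 (UDP-glucuronate 4-epimerase 6), rose. It had 242, 255 and 282 FPKM in bagged skin, against 172, 134 and 148 FPKM in untreated skin, a log2 fold change of 0.77 ± 0.11 (edgeR adjusted p = 0.017). The call was lost without untreated replicate 2 or any bagged library (adjusted p 0.0506 to 0.0563). Of 30 tested genes described as galacturonosyltransferases, a class that includes enzymes extending pectin chains, 1 rose and 29 did not pass. That gene, LOC103963163 (galacturonosyltransferase-like 1), had 9.86, 9.89 and 10.1 FPKM in bagged skin, against 4.37, 5.66 and 4.96 FPKM in untreated skin, a log2 fold change of 0.99 ± 0.13 (edgeR adjusted p = 0.0135), a call lost without bagged replicate 1 (0.0546) or 2 (0.0503).

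The 2 that fell were alpha-L-arabinofuranosidases, which remove arabinose from side chains, and both were low. LOC103939457 (beta-xylosidase/alpha-L-arabinofuranosidase 2-like) had 0.0619, 0.0294 and 0.0268 FPKM in bagged skin, against 0.798, 0.782 and 0.472 FPKM in untreated skin, a log2 fold change of -4.03 ± 0.52 (edgeR adjusted p = 0.0118), a call lost without bagged replicate 2 (0.0516). LOC103968089 (beta-xylosidase/alpha-L-arabinofuranosidase 1-like) had 0.122, 0.324 and 0.337 FPKM in bagged skin, against 1.82, 1.35 and 1.46 FPKM in untreated skin, a log2 fold change of -2.54 ± 0.38 (edgeR adjusted p = 0.0175), a call lost without untreated replicate 1 (0.0651) or bagged replicate 2 (0.0563). No library of one group overlapped the other in these 4 genes. Of 11 tested arabinosyltransferases of the ARAD type and 1 tested rhamnogalacturonate lyase, none was called by edgeR.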

How the data were processed

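The deposited table gives raw read counts and FPKM per gene and library, made by the authors. Reads were aligned with HISAT2, per the submitters' processing notes. What counted them, with which strand setting, genome build and annotation, is not given in the sources used here. Positions are therefore the authors' own, and overlapping genes or near-identical copies may share reads that cannot be told apart. Per the file headers it also holds the authors' group means (a scaled signal, not used here), log2 fold change, p-value and adjusted p-value. Gene length is listed there as well. The deposited FPKM equals count per length and library total times a factor of 0.967 to 1.02 per library.

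The deposited counts went into edgeR 4.0.16 (R 4.3.3): filterByExpr (minimum count 10, minimum total 15), TMM factors, and a quasi-likelihood test of 3 bagged against 3 untreated libraries, Benjamini-Hochberg adjusted over 25139 genes. Standard errors (SE) are the fold change over the square root of F, and 95% intervals use the test's degrees of freedom. Floors and intervals cover counting error or the spread of these libraries only. The median SE was 0.17. Levels are the deposited FPKM, sums are over all members of a family, and overlap between groups was read in TMM-scaled CPM. Libraries of a group all differed by more than counting noise, with a chi-square of 12.3 to 20.7 for each degree of freedom. The procedure was tested on simulated data.

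The members and lists were chosen with earlier results of these data known. Families, marker lists and other pectin genes were set as text patterns on the descriptions. Named genes were all called members, the 2 with the highest mean FPKM per family, and tested members without overlap and with a log2 fold change of at least 1 either way, 19 in all. Of the other pectin genes the called ones and the most abundant were named. Alternatives were RLE and upper quartile factors, library size alone, no filter, a filter on CPM (1 or more in 3 libraries), limma-voom (limma 3.58.1), DESeq2 1.42.0, limma on log2(FPKM + 1) and log2(FPKM + 0.1), a replicate block, and each library left out.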

Additional observations from a re-analysis of the deposited data

How the results depend on the processing

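Of the 4 called genes, all 4 were called in each of the 10 alternatives that keep all libraries, and DESeq2 called 10 members. DESeq2 gave 1501 changed genes in all (756 higher, 745 lower), and among members 3 higher (1 polygalacturonase, 1 pectin acetylesterase, 1 beta-galactosidase) and 7 lower (2 pectinesterases, 2 polygalacturonases, 1 beta-galactosidase among them). With no filter 2 pectinesterases and 2 polygalacturonases fell, and medians were -0.19 over all members, -0.21 for pectinesterases, -0.79 for polygalacturonases, 0.024 for pectin acetylesterases and -0.18 for beta-galactosidases, over 118 members tested. With 1 library left out, 205 to 692 genes changed (70 to 306 higher, 135 to 386 lower), 0 to 1 member rose and 1 to 5 fell. By family, 0 to 1 pectinesterase rose and 0 to 2 fell, 1 to 2 polygalacturonases, 0 to 1 pectate lyase and 0 to 1 pectin acetylesterase fell. The median then ran from -0.030 to 0.13 for pectinesterases, -0.028 to 0.10 for polygalacturonases and -0.11 to 0.23 for pectate lyases. Fold changes near 0 changed sign: GAL6 under upper quartile factors (-0.0011) and library size alone (-0.027) and without 1 library (-0.11 to 0.11), LOC103943418 under library size alone (-0.013) and without 1 library (-0.056 to 0.16), and LOC103955547 without 1 library (-0.33 to 0.26). The cause of these changes was not tested. With the replicate number as a block the same 4 members were called, 0 higher and 4 lower, and 728 genes in all. Same-numbered libraries deviated from their group means with correlations of -0.04, 0.08 and 0.06. Libraries of different number gave -0.13 to 0.08. With 3 libraries per group these values cannot decide whether the numbers pair the libraries. The filter was set anew for each library left out, which let 68 to 70 members be tested. The 51 members with counts below the filter in the main fit were all tested with no filter, and none of them was called there. Their totals were at most 57 counts over the 6 libraries, so differences in them may not be detectable at this depth.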
